A study of Rattus norvegicus with 12 samples.

Results

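Gene expression in fibrotic bronchi of rats exposed to 2,3-pentanedione (PD) was compared with that in bronchi of air-exposed controls. The comparison took the 3 arrays titled as fibrotic after PD (replicates 3, 7 and 9) and the 6 arrays titled as air controls (replicates 1 to 6), which are 9 of the 12 arrays of the series. The remaining 3 arrays held non-fibrotic bronchi of exposed rats and entered the model for the estimate of the spread. All rats were young male Wistar rats (Wistar-Han in the methods), exposed by inhalation to 200 ppm PD for 2 weeks or to filtered air, and all specimens came from the right diaphragmatic lobe of the lung. Specimens were cut from frozen sections with a laser. A fibrotic specimen was a polyp or plaque of scar tissue that projected into the airway, taken with the whole wall beneath it down to the adventitia, and a control specimen was normal bronchial epithelium with the same wall. The fibrotic specimens are thus mixed tissue, in which fewer cells of a type and less RNA per cell cannot be told apart. The methods describe fibrotic tissue from more rats than the 3 specimens analysed here. They also state that the non-fibrotic bronchi came from 3 of the rats that gave fibrotic tissue, whereas the model treats all arrays as independent. The labels tie no specimen to a rat, so that p-values measure the spread between these specimens.

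PD is a butter-flavouring diketone whose vapour injures the lining of the conducting airways. In a normal bronchus ciliated cells move mucus, club cells secrete protective proteins and metabolise inhaled chemicals, and basal cells replace both after injury. In obliterative bronchiolitis, loose connective tissue laid down by fibroblasts grows into the lumen beneath a damaged or regenerating epithelium, and macrophages and lymphocytes gather around it.

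Each array gave 1 MAS5 signal, a brightness on a linear scale that was taken to log2 here, for each of 31042 probe sets. Genes were read from 1 probe set each, the one with the highest mean, which left 14217 genes. The highest log2 signal of probe sets for transcripts that the specimens cannot hold was 6.52, and this is called the level of absent transcripts. Values below it have no order, and a fold change against a group that lies wholly below it is given as a lower bound. The median of a gene list is given as measured and floored, that is with values below this level set to it. A difference of a single gene is also given floored where flooring moved it by over 0.1. Over all genes the median was 0.10 as measured and 0.00 floored. Over all probe sets the fibrotic arrays correlated with each other at 0.881 to 0.883, controls 3 to 6 at 0.948 to 0.957, and controls 1 and 2 at 0.874. Labels of controls 1 and 2 have the form of the labels of the exposed arrays, and controls 3 to 6 have another form. The spiked polyA transcripts had log2 means of 2.31 and 2.33 in controls 1 and 2, 9.99 to 10.63 in controls 3 to 6 and 8.03 to 10.68 in the fibrotic arrays. The 3′ to 5′ log2 ratio of Gapdh, a sign of RNA quality, was 1.16 and 2.04 in controls 1 and 2, 0.70 to 0.90 in controls 3 to 6 and 1.59 to 2.11 in the fibrotic arrays. The summed signal of 55 ciliated cell genes was 17.24 to 17.73 in the controls and 13.78 to 14.42 in the fibrotic arrays on the log2 scale, that of 26 club cell genes 16.65 to 17.55 and 14.02 to 14.91, and that of 30 smooth muscle genes 15.57 to 16.84 and 16.22 to 16.70. The part of these differences in the results was not tested. Counts are also given with the label form as a block, which sets the fibrotic arrays against controls 1 and 2.

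More probe sets fell than rose in fibrotic bronchi. At an adjusted p under 0.01, 927 probe sets were higher (2.99%) and 1987 were lower (6.4%). Among genes, 587 were higher (4.13%) and 1192 were lower (8.38%), with medians of 1.96 and -2.44 on the log2 scale. A change of over 3 on the log2 scale was found for 113 of the genes that rose and 442 of those that fell. With the label form as a block, 233 genes were higher (1.64%) and 626 lower (4.4%), of which 170 and 595 were also called without it. Block counts of the gene lists below stand against 1.64% and 4.4%, and the other counts against 4.13% and 8.38%. The count of probe sets that rose was 395, 404 and 499 without fibrotic replicate 3, 7 and 9, and 597 and 583 without control 5 and 6. The count that fell was 1323 without fibrotic replicate 3.

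The genes that rose most, outside the ciliated, club and matrix lists, held a growth factor of the TGF-β family (Inhba), a plasminogen activator (Plau), macrophage receptors (Mrc1 and Folr2) and an alarmin (Il33). Inhba, which encodes the subunit of activin A, had log2 signals of 7.21 to 8.14 (median 7.90) in the controls and 12.51, 12.20 and 12.09 in fibrotic replicates 3, 7 and 9. It was higher by 4.47 ± 0.62 (SE) on the log2 scale, 22.2-fold, with an adjusted p of 0.000105. All fibrotic arrays lay above all controls, which was a condition for choosing the 20 leading rises and the 20 leading falls. Bcat1, an enzyme of branched-chain amino acid breakdown, was at 5.19 to 7.31 (median 6.70) in the controls and 11.78, 11.23 and 11.27 in the fibrotic arrays (log2 difference 4.83 ± 0.51, floored 4.61, adjusted p = 7.44e-06). Fibin, a secreted factor, was at 5.09 to 7.75 (median 7.10) and 11.66, 10.89 and 12.27 (log2 difference 4.85 ± 0.54, floored 4.55). Egr2, an immediate early transcription factor, was at 6.47 to 8.13 (median 7.22) and 11.10, 12.52 and 10.57 (log2 difference 4.11 ± 0.57). Control values of these 3 genes reached below the level of absent transcripts, whereas every fibrotic value was at least 4 log2 units above it. A second, dimmer probe set for Egr2 was not called (2.14), nor was that for Nkain1 (1.69).

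Plau, urokinase, was at 8.18 to 9.84 (median 8.63) in the controls and 12.81, 12.84 and 12.76 in the fibrotic arrays, which were closer to each other than for any other gene in the plot of the leading genes. Its log2 difference was 3.92 ± 0.47 (adjusted p = 3.03e-05). Gpnmb, a glycoprotein of lipid-laden macrophages, was at 6.73 to 8.77 (median 8.22) and 12.74, 11.68 and 11.66 (log2 difference 4.00 ± 0.51), and Folr2, a folate receptor of resident macrophages, at 4.95 to 7.29 (median 6.61) and 11.41, 10.70 and 9.84 (log2 difference 4.26 ± 0.71, floored 3.94). Il33, an alarmin released by injured epithelium and stroma, was at 8.32 to 10.34 (median 8.66) and 12.98, 12.28 and 12.85 (log2 difference 3.79 ± 0.65). Krt7, a keratin of simple epithelia, was at 7.49 to 10.43 (median 7.59) in the controls and 11.76 to 12.36 in the fibrotic arrays (log2 difference 3.91 ± 0.59), and the highest control value of both genes was that of a control with the label form of the exposed arrays. With the label form as a block, Il33 and Krt7 were not called (log2 differences of 2.96 and 2.75), nor were Adamts4, Nkain1, Timp1, C5ar1, Fcnb, Crabp2 and Apobec1. Of the 20 genes 5 lost the call when 1 array was left out. Timp1 did so without fibrotic replicate 3 or 7 (log2 differences of 4.12 and 3.98) and Mrc1 without replicate 3, 7 or 9 (4.34, 4.47 and 4.84). Fcnb did so when any fibrotic replicate or control 5 was left out (3.74 to 4.66), and Crabp2 and Apobec1 when any of the 9 arrays was (3.75 to 4.66 and 3.59 to 4.21).

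**Figure D1:**
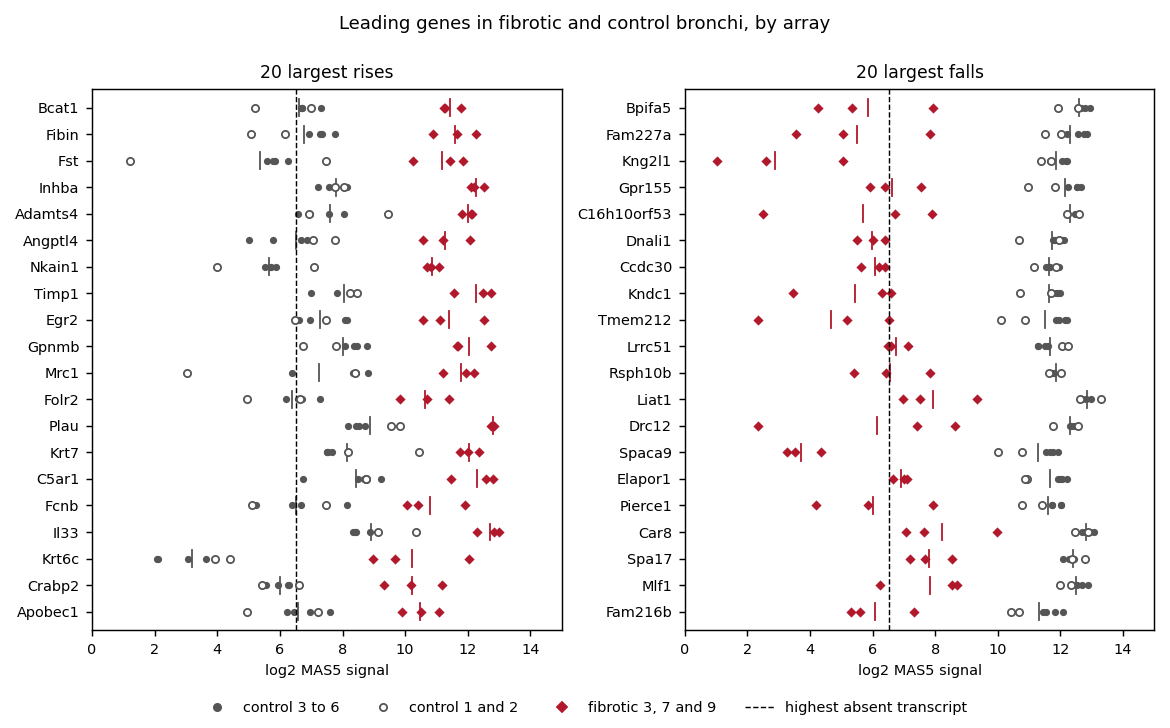
The 20 leading rises (left) and 20 leading falls (right), each gene with the log2 MAS5 signal of every array (x axis). Grey points are controls 3 to 6, open points controls 1 and 2, red diamonds the 3 fibrotic arrays, short bars the group means and the dashed line the level of absent transcripts (6.52). Genes were chosen for having no overlap between the groups, and the floored rises run from 3.59 (Apobec1) to 4.61 (Bcat1) on the log2 scale.

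The genes that fell most included further genes of the cilium, although the ciliated list was left out. Dnali1, a light chain of axonemal dynein, was at 10.66 to 12.12 (median 11.89) in the controls and at 6.00, 5.51 and 6.38 in the fibrotic arrays, all below the level of absent transcripts, and was at least 37.1-fold lower. Spaca9 and Pierce1 encode proteins of the ciliary microtubules. Spaca9 was at least 26.9-fold lower, with fibrotic values of 3.50, 4.37 and 3.27, and Pierce1 was lower by 5.61 ± 0.54 (SE, floored difference -4.62) on the log2 scale. Rsph10b, a radial spoke component, was at 11.63 to 12.03 (median 11.90) in the controls and 5.42, 6.42 and 7.84 in the fibrotic arrays (log2 difference -5.30 ± 0.43, floored -4.90, adjusted p = 6.68e-07). Leading falls of other kinds were found beside them. Kng2l1, a kininogen-like gene, was at 11.38 to 12.22 (median 11.88) in the controls and 1.02, 5.06 and 2.58 in the fibrotic arrays and was at least 40.7-fold lower. Bpifa5, a secreted protein of the airway lining, was at 11.94 to 12.93 (median 12.63) and 5.35, 7.93 and 4.25 (log2 difference -6.73 ± 0.58, floored -5.59). Gpr155, a cholesterol-binding protein of the lysosome, was at 10.96 to 12.66 (median 12.40) and 5.93, 7.55 and 6.38 (log2 difference -5.51 ± 0.38, floored -5.27), and Car8, a protein related to the carbonic anhydrases, was at 12.48 to 13.07 (median 12.82) and 7.63, 9.96 and 7.07 (log2 difference -4.58 ± 0.42). The 20 genes were also called with the label form as a block and without any 1 array. A second, dimmer probe set was not called for Dnali1 (-0.95), Gpr155 (-1.94) and Rsph10b (-0.89).

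Epithelial genes outside the ciliated and club cell lists were lower as well. Of 40 transcription factors of lung epithelium, 12 were lower (30%, against 8.38% of all genes) and 3 higher (7.5%, against 4.13%), with a median of -0.91 (floored -0.69) on the log2 scale. Sox2, which specifies the conducting airway, was at 10.55 to 11.78 (median 11.54) in the controls and 7.35, 7.08 and 8.74 in the fibrotic arrays (log2 difference -3.69 ± 0.34, adjusted p = 2.49e-06). Foxa2, a forkhead factor of lung and liver epithelium, was at 8.72 to 10.08 (median 9.69) and 2.86, 6.28 and 4.66, all fibrotic values below the level of absent transcripts, and was at least 8.02-fold lower. Six4 and Irx2, homeobox factors, were lower by 3.57 ± 0.40 (floored difference -3.08) and 2.56 ± 0.31 (SE). Spdef, which drives mucous differentiation, was at 8.37 to 9.28 (median 8.81) and 3.53, 3.82 and 4.59 and was at least 4.94-fold lower. Foxa1, Irx1, Irx3, Nkx2-1, Elf3, Elf5 and Id4 also fell. The 3 members that rose were Zeb1 and Zeb2, repressors of epithelial genes, and Cebpa. With the block 10 were lower and 3 higher, of which 9 and 3 were also called without it.

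Genes that join and polarise epithelial cells fell with them. Of 46 simple epithelial keratins, claudins and adhesion genes, 18 were lower (39.1%, against 8.38% of all genes) and 2 higher (4.35%, against 4.13%). The median was -0.85 (floored -0.82), and 14 were lower and none higher with the block. Prom1, a protein of apical membrane protrusions, was at 12.88 to 13.80 (median 12.97) in the controls and 10.78, 11.04 and 11.13 in the fibrotic arrays (log2 difference -2.18 ± 0.22, adjusted p = 5.66e-06). Esrp1, a splicing factor restricted to epithelium, was at 11.52 to 11.90 (median 11.68) and 9.98, 9.92 and 10.12 (log2 difference -1.68 ± 0.18). Its fibrotic values lay within 0.2 log2 units of each other. Cgn, cingulin of the tight junction, was lower by 3.07 ± 0.33 (SE) and Cldn7, a claudin, by 2.50 ± 0.28. Cdh1, Cldn3, Cldn8, Tjp3 and Patj fell as well, and Krt7 and Cldn6 rose, 1 of them without fibrotic replicate 3 or 7. Epcam was not called.

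Water channels and peptide and sodium transport were the next group to fall. Of 43 airway transport genes 15 were lower (34.9%, against 8.38% of all genes) and 3 higher (6.98%, against 4.13%). The median was -0.85 (floored -0.74), and 8 were lower and 1 higher with the block. Aqp4, the basolateral water channel of bronchial epithelium, was at 11.42 to 12.37 (median 12.22) in the controls and 8.08, 7.45 and 7.87 in the fibrotic arrays (log2 difference -4.30 ± 0.24, 19.7-fold lower, adjusted p = 1.47e-08). Aqp5, the apical water channel, was at 10.33 to 12.27 (median 10.76) and 6.45, 7.31 and 6.82 (log2 difference -4.08 ± 0.41). Slc15a2, the proton-coupled peptide transporter PEPT2, was at 9.45 to 10.94 (median 10.18) and 1.51, 4.87 and 4.58 and was at least 13.3-fold lower. The subunits Scnn1a, Scnn1b and Scnn1g of the epithelial sodium channel fell without the block, and Scnn1g lost the call without fibrotic replicate 3 or 7 (log2 differences of -4.33 and -2.92). Cftr, the chloride channel, was not called. Nkain1, Fxyd6 and Kcnn4 were the 3 members that rose, of which 1 was called without fibrotic replicate 3 or 7.

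Of 29 secreted proteins of mucosal defence 6 fell (20.7%, against 8.38% of all genes) and 1, Lyz2, rose, which was not called without fibrotic replicate 3 or 7 or any of controls 3 to 6. The median of the list was -0.18 (floored -0.02), 13 of the 29 differences were above 0, and 5 fell and none rose with the block. Hp, haptoglobin, was at 11.35 to 12.72 (median 12.21) in the controls and 7.27, 7.62 and 8.51 in the fibrotic arrays (log2 difference -4.33 ± 0.32, adjusted p = 2.79e-07). Pigr, which carries IgA across the epithelium, was at 12.62 to 13.21 (median 12.94) and 7.87, 11.68 and 8.81 (log2 difference -3.44 ± 0.53), with fibrotic replicate 7 well above the other two. Wfdc2, an antiprotease, was lower by 1.48 ± 0.23 (SE) and was still at 12.77, 13.15 and 12.21 in the fibrotic arrays. Of 20 mucin and goblet cell genes 4 fell (20%, against 8.38% of all genes) and none rose. The median was 0.45 (floored 0.00), with 11 of the 20 differences above 0. With the block 4 fell, of which 2 were also called without it, and 1 rose. Among the 4 was Agr2, a protein disulfide isomerase of mucous cells, at 12.39 to 13.43 (median 12.80) in the controls and 8.13, 10.19 and 10.13 in the fibrotic arrays (log2 difference -3.35 ± 0.45). The goblet cell count was 2 without fibrotic replicate 3.

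**Figure D2:**
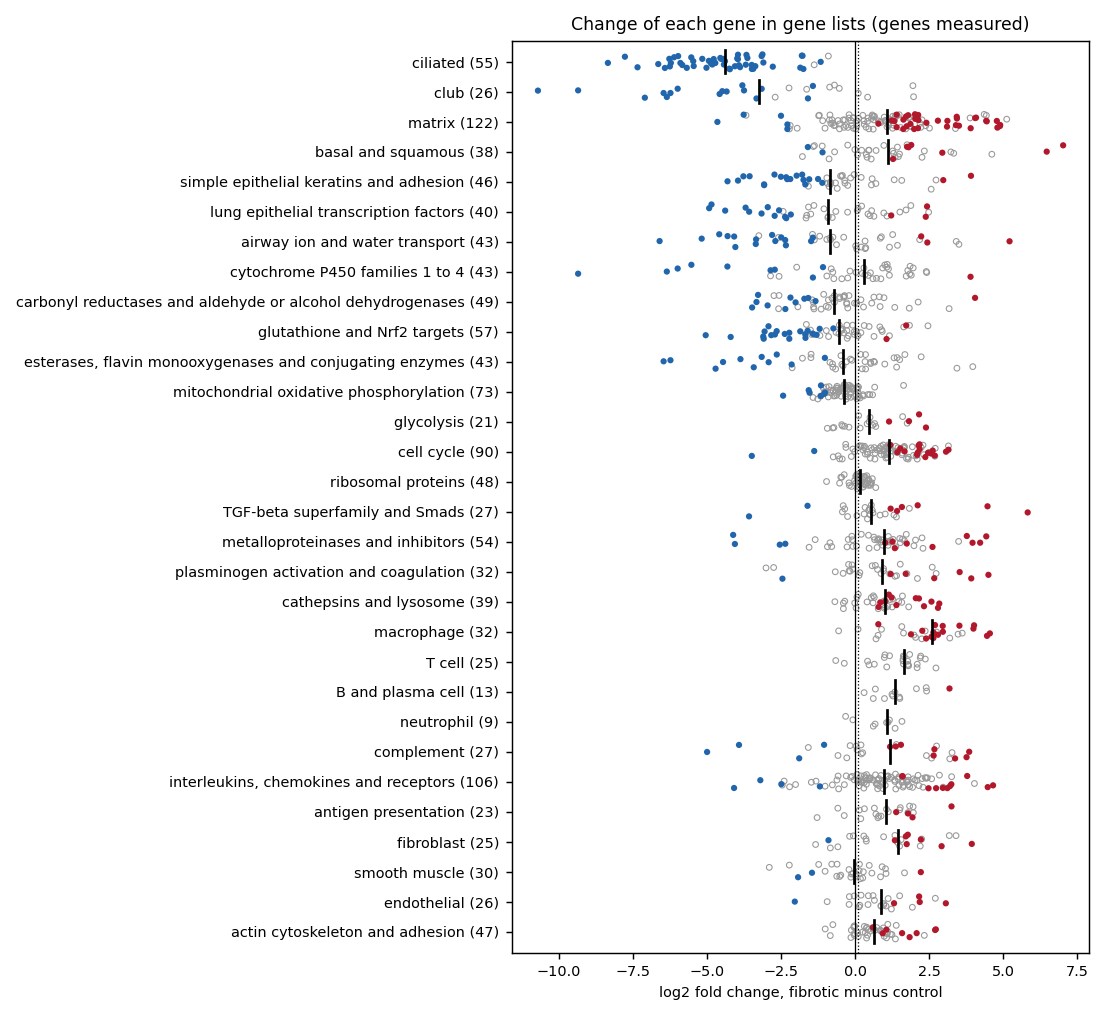
Log2 fold change (x axis, fibrotic minus control) of every measured gene in 30 gene lists, with the number of genes in brackets. Red points are genes called higher, blue points genes called lower, open points genes not called and black bars list medians. The dotted line is the median over all genes (0.10). The macrophage median was 2.61 and that of lung epithelial transcription factors -0.91.

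Enzymes that detoxify reactive carbonyls and conjugate them with glutathione are concentrated in club cells and other secretory cells of the airway, and the diketone group of PD is a substrate of carbonyl reductases. Of 57 genes of glutathione metabolism and targets of Nrf2, the transcription factor of the antioxidant response, 21 were lower (36.8%, against 8.38% of all genes) and 2 higher (median -0.54, floored -0.47). With the block 14 were lower and 2 higher, of which 13 and 2 were also called without it. Gsta1, a glutathione S-transferase, was at 12.91 to 13.33 (median 13.12) in the controls and 9.43, 9.19 and 8.14 in the fibrotic arrays (log2 difference -4.20 ± 0.25, 18.3-fold lower, adjusted p = 3.3e-08). Gstm1 was at 12.72 to 13.80 (median 12.92) and 10.01, 10.38 and 10.36 (log2 difference -2.83 ± 0.23), and Gstm2 was lower by 2.64 ± 0.20 (SE). These transferases are close relatives, and their probe sets may share transcripts. Prdx6, a peroxiredoxin that reduces phospholipid peroxides, was at 12.80 to 13.59 (median 13.01) and 10.47, 11.14 and 10.54 (log2 difference -2.37 ± 0.21). Nqo1, Gclm, Gsr, Me1, Gpx2, Gsta3, Gstp1 and 10 further members fell. The 2 that rose were Gpx3, a secreted peroxidase, and Gpx8, a peroxidase of the endoplasmic reticulum. Neither was called when any fibrotic array was left out, and 1 was called without control 1, 3, 4 or 6.

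Nrf2 acts through the antioxidant response element, searched here as TGACNNNGC on both strands of the 250 bases before each start site in RefSeq (build GRCr8). On the other strand these letters read GCNNNGTCA, and they can overlap the AP-1 letters TGANTCA. Of 48 list members with a promoter 10 (20.8%) held the letters, as did 8 (50%) of the 16 promoters of members that fell, against 12.3% of all 11733 promoters of measured genes and 12.5% of the 1004 promoters of genes that fell. Because the list was made to hold targets of Nrf2, its share of the letters may follow from that choice. The part of Nrf2 in the falls was not tested. The promoters of 3 members that fell are shown because the letters occur in them, with the letters in capitals: Gsta3, a transferase of the alpha class (chr9:31154739-31154988, plus strand), Gclm, the modifier subunit of the enzyme that starts glutathione synthesis (chr2:213031885-213032134, plus strand), and Gpx2, an epithelial glutathione peroxidase (chr6:101230034-101230283, minus strand).
Gsta3: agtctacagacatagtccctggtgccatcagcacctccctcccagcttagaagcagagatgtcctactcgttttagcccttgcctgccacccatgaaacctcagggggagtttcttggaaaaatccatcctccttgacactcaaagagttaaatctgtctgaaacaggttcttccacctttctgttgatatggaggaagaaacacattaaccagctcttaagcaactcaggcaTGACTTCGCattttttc
Gclm: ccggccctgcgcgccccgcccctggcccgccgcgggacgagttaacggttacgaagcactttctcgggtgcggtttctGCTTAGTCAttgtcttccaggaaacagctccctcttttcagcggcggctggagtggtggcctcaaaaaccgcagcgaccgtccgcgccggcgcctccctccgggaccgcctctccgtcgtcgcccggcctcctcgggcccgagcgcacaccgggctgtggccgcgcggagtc
Gpx2: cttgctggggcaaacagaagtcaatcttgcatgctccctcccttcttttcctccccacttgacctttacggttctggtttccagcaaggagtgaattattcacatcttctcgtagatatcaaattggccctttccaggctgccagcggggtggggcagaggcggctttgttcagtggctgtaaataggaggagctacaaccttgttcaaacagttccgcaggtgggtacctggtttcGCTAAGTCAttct
The letters lie close to the start site in Gsta3 and Gpx2, and in Gclm they lie in the first part of the window.

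Among carbonyl reductases, aldehyde dehydrogenases and alcohol dehydrogenases, 10 of 49 were lower (20.4%, against 8.38% of all genes) and 1, Akr1c3, was higher (2.04%, against 4.13%). The median was -0.70 (floored -0.28). Akr1c3 was not called without a fibrotic replicate or control 4, 5 or 6, and 2 members rose without control 1. With the block 6 were lower and 1 higher, of which 5 and none were also called without it. Aldh2, the mitochondrial aldehyde dehydrogenase, was at 12.19 to 12.78 (median 12.57) in the controls and 9.95, 11.17 and 9.98 in the fibrotic arrays (log2 difference -2.18 ± 0.26, adjusted p = 2.75e-05). Aldh1a1, which also makes retinoic acid, was at 13.29 to 13.80 (median 13.53) and 10.76, 11.70 and 8.18 (log2 difference -3.33 ± 0.48) and varied by over 3 log2 units among the fibrotic arrays. Akr1c15, an aldo-keto reductase, was at 11.64 to 12.41 (median 12.16) and 8.89, 10.24 and 6.86 (log2 difference -3.47 ± 0.49). Dcxr, dicarbonyl reductase, which reduces diketones, was among the 10 that fell, and Cbr1 and Cbr3 were not called.

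Of 43 esterases, flavin monooxygenases and conjugating enzymes 11 were lower (25.6%, against 8.38% of all genes) and none higher. The median was -0.40 (floored 0.00), and 8 were lower with the block. Ces1d, a carboxylesterase, was at 13.04 to 13.64 (median 13.34) in the controls and 5.02, 9.47 and 6.87 in the fibrotic arrays (log2 difference -6.23 ± 0.60, floored -5.73, adjusted p = 3.49e-06). Pon3, a lactonase, was lower by 2.92 ± 0.29 (SE) and stayed well above the level of absent transcripts at 9.83, 11.15 and 11.12. Pon1, its relative, was at 9.41 to 11.27 (median 10.65) and 4.65, 4.10 and 3.23 and was at least 15.3-fold lower, although a second, dimmer probe set for Pon1 was 0.80 higher and not called. Of 43 cytochrome P450 genes and their reductases 9 fell and 1, Cyp1b1, rose, which was not called without fibrotic replicate 3 or 7. The median of the list was 0.30 (floored 0.00), the share lower was 20.9% against 8.38% of all genes, and 6 fell and none rose with the block. Cyp4b1, an isoform of lung and airway, was at 11.10 to 13.08 (median 12.67) and 6.37, 8.82 and 3.93 (log2 difference -5.99 ± 0.72, floored -5.07), and Cyb5a, cytochrome b5, at 10.49 to 11.93 (median 11.81) and 9.09, 8.64 and 8.57 (log2 difference -2.71 ± 0.32).

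Calls among genes of energy metabolism differed between lists. Of 73 genes of mitochondrial oxidative phosphorylation 7 were lower and none higher (median -0.39, floored -0.39), and none was called with the block. The share of 9.59% is close to the 8.38% of all genes. The count was 2, 3 and 0 without fibrotic replicate 3, 7 and 9, 14 without control 1, and 4 without control 3, 4, 5 or 6. Of 21 glycolysis genes 4 were higher (19%, against 4.13% of all genes) and none lower. The median was 0.48 (floored 0.41), and 2 were higher and 1 lower with the block. Eno2, an enolase isoform, was at 7.68 to 8.98 (median 8.14) in the controls and 10.80, 10.78 and 10.24 in the fibrotic arrays (log2 difference 2.40 ± 0.32, adjusted p = 7.84e-05). Pgk1, phosphoglycerate kinase, was at 10.53 to 11.14 (median 10.98) and 11.93, 12.03 and 12.20 (log2 difference 1.15 ± 0.21). Slc16a1, the lactate transporter MCT1, was higher by 2.16 ± 0.37 (SE), and by 1.46 and not called with the block. It was also not called at its second probe set (0.32) or with the mean of its probe sets (1.24), nor was Pgk1 at its second probe set (0.73) or without the trend (1.15). Of 38 genes of the citric acid cycle and fatty acid oxidation 6 were lower (15.8%, against 8.38% of all genes) and none higher. The median was -0.52 (floored -0.52). With the block 2 were lower, of which 1 was also called without it. Idh3a, a subunit of isocitrate dehydrogenase in the citric acid cycle, was lower by 1.67 ± 0.30 (SE), and its difference was -1.07 and not called with the block. Npas2, a transcription factor of the circadian clock, was at 10.21 to 10.97 (median 10.58) in the controls and 7.13, 6.95 and 7.85 in the fibrotic arrays (log2 difference -3.25 ± 0.35, adjusted p = 8.91e-06).

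Genes of cell division rose. Of 90 cell cycle genes 16 were higher (17.8% against 4.13% of all genes) and 2 lower (2.22% against 8.38%), with a median of 1.14 (floored 0.93). With the block 10 were higher and 1 lower, of which 8 and 1 were also called without it. The count of rises was 8, 9 and 9 without fibrotic replicate 3, 7 and 9, and that of falls 1 without fibrotic replicate 3 or 7 or any of controls 2 to 6. Mki67, the antigen Ki-67 of cycling cells, was at 9.19 to 11.11 (median 9.72) in the controls and 12.01, 12.45 and 12.96 in the fibrotic arrays (log2 difference 2.62 ± 0.35, 6.15-fold, adjusted p = 7.8e-05). Cdca3, which helps trigger entry into mitosis, was at 5.69 to 6.74 (median 6.44) and 9.23, 9.56 and 9.57 (log2 difference 3.07 ± 0.41, floored 2.85). Mcm5, a subunit of the replication helicase, was at 7.41 to 8.96 (median 8.61) and 10.55, 10.40 and 10.89 (log2 difference 2.18 ± 0.31). Birc5, Cks2, Mcm4, Melk, Kif2c, Hmmr, Tyms and Smc4 also rose. The 2 members that went the other way were Aurkb and Cenpf. Aurkb, aurora kinase B, was at 11.73 to 13.17 (median 12.40) in the controls and 9.04, 8.88 and 8.69 in the fibrotic arrays (log2 difference -3.48 ± 0.32), and was measured by 1 probe set. Cdkn1c, the cyclin-dependent kinase inhibitor p57, was at 9.15 to 11.87 (median 11.59) and 7.31, 6.45 and 7.88 (log2 difference -3.66 ± 0.61), with its lowest control values in the 2 controls labelled as the exposed arrays. Of 48 ribosomal protein genes none was called by the limma fit or by ordinary t statistics, 8 had an unadjusted p under 0.05, 1 was called without control 1, and the median was 0.18.

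Promoters of cell cycle genes carry CCAAT boxes and the cell cycle homology region, searched here as CCAAT and TTTGAA on both strands of the same window. On the other strand they read ATTGG and TTCAAA. The CCAAT letters were found in 58 of 79 cell cycle promoters (73.4%) and in 10 of 15 (66.7%) of those that rose, against 35.1% of all promoters and 35% of the promoters of genes that rose. TTTGAA was found in 22 of 79 (27.8%) and 5 of 15 (33.3%), against 10.9% of all and 9.94% of the promoters of genes that rose. Promoters of Mki67 (chr1:199952594-199952843, minus strand) and of Birc5, survivin (chr10:103571896-103572145, plus strand), are shown because both kinds of letters occur in them, in capitals.
Mki67: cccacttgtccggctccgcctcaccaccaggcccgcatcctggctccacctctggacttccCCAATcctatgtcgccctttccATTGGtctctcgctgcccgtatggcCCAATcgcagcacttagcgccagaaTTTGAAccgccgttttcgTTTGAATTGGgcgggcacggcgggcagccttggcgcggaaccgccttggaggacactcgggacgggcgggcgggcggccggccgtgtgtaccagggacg
Birc5: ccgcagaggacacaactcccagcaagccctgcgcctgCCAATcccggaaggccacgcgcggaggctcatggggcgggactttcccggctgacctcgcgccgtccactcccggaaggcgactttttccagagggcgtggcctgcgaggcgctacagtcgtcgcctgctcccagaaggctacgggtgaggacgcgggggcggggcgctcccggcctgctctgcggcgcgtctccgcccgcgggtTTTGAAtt
In Mki67 the second TTTGAA shares a base with the ATTGG that follows it. The other letters searched, TGANTCA of AP-1 and ACGTG of the hypoxia response, were found in 7.45% and 20.9% of the promoters of genes that rose and in 4.84% and 21% of all promoters.

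The activin subunits moved in opposite directions. Among 27 genes of the TGF-β superfamily 6 rose (22.2%, against 4.13% of all genes) and 2 fell (7.41%, against 8.38%). The median was 0.55 (floored 0.55), and 3 rose and 1 fell with the block. Inhbb, the subunit of activin B, was at 10.85 to 11.40 (median 11.23) in the controls and 9.22, 9.49 and 10.03 in the fibrotic arrays (log2 difference -1.60 ± 0.21, adjusted p = 7.59e-05), against the rise of Inhba. Fst, follistatin, which binds and blocks both activins, was at 1.20 to 7.47 (median 5.80) and 11.44, 11.86 and 10.25 (log2 difference 5.83 ± 1.01, floored 4.50). Tgfbr1, the type I receptor of TGF-β, was at 9.63 to 10.22 (median 10.00) and 11.87, 11.23 and 11.06 (log2 difference 1.42 ± 0.23), and its second probe set was not called (0.90). Fstl1, a follistatin-like glycoprotein of mesenchyme, was higher by 2.11 ± 0.34 (SE), and by 1.63 and not called with the block. Tgfb2 and Pmepa1 rose, and Inha fell, with 1 fall in the list without fibrotic replicate 3 or 7, and Tgfb1 and Tgfb3 were not called.

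Of 46 genes of the PDGF, FGF, HGF and nerve growth factor families 4 rose and 3 fell, shares of 8.7% and 6.52% against 4.13% and 8.38% of all genes, and 2 rose without fibrotic replicate 7. With the block 2 rose and 2 fell. Fgfr2, the receptor for the mesenchymal ligands that sustain epithelium, was at 11.49 to 12.31 (median 11.97) in the controls and 8.04, 10.62 and 8.28 in the fibrotic arrays (log2 difference -2.95 ± 0.45, -2.56 and not called with the block), and fibrotic replicate 7 was the highest. Fgfr3 was at 11.06 to 12.21 (median 11.63) and 9.08, 9.79 and 9.40 (log2 difference -2.21 ± 0.27) and Fgf1, an acidic fibroblast growth factor, at 10.34 to 10.87 (median 10.52) and 8.87, 9.45 and 8.38 (log2 difference -1.69 ± 0.26). Pdgfra, a receptor of fibroblasts, was at 9.71 to 10.70 (median 10.36) and 11.61, 11.70 and 11.66 (log2 difference 1.35 ± 0.22, adjusted p = 0.000498), and the 3 fibrotic values lay within 0.1 log2 units of each other. Pdgfrb, Axl and Fgf7, a ligand of Fgfr2, rose as well.

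Of 20 genes of the insulin-like growth factor system 4 rose (20%, against 4.13% of all genes) and none fell. The median was 0.64 (floored 0.18), and 2 rose and 1 fell with the block. Without fibrotic replicate 9 there was 1 fall. Igf1 was at 8.64 to 9.78 (median 9.42) in the controls and 11.54, 12.12 and 11.65 in the fibrotic arrays (log2 difference 2.41 ± 0.40, adjusted p = 0.000542), although its second probe set was not called (2.26), and Grb10, an adaptor of the receptor, was at 9.40 to 10.49 (median 9.87) and 11.46, 11.57 and 11.98 (log2 difference 1.71 ± 0.26). Of 16 EGF receptor ligands and ErbB receptor genes 4 rose and 1 fell (25% and 6.25%), and 1 rose and 1 fell with the block. Lrig1, which restrains ErbB receptors, was at 11.23 to 11.54 (median 11.29) and 8.94, 9.80 and 9.82 (log2 difference -1.81 ± 0.24). Among 56 guidance genes (semaphorins, ephrins and netrins) 5 rose and 4 fell (8.93% and 7.14%), and 2 rose and none fell with the block. Slit3, a guidance ligand, was at 6.09 to 8.61 (median 6.75) and 10.16, 10.55 and 10.02 (log2 difference 3.25 ± 0.47), and Sema6b, a transmembrane semaphorin, was higher by 2.57 ± 0.38 (SE). In the Wnt list 1 of 47 genes rose and 4 fell (2.13% and 8.51%), and in the BMP list 1 of 32 rose and 4 fell (3.12% and 12.5%). The shares over all genes were 4.13% and 8.38%. With the block 1 Wnt gene rose, and no gene of either list fell. Wif1, a secreted inhibitor of Wnt, was lower by 3.15 ± 0.50 (SE, floored difference -2.75), Lgr5, a receptor that enhances Wnt signals, by 2.70 ± 0.48 (floored difference -2.22) and Bmp5, a bone morphogenetic protein, by 2.39 ± 0.38. With the block these last 3 were not called, at -2.40, -2.35 and -1.80, and a second probe set for Bmp5 was not called (-1.80).

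**Figure D3:**
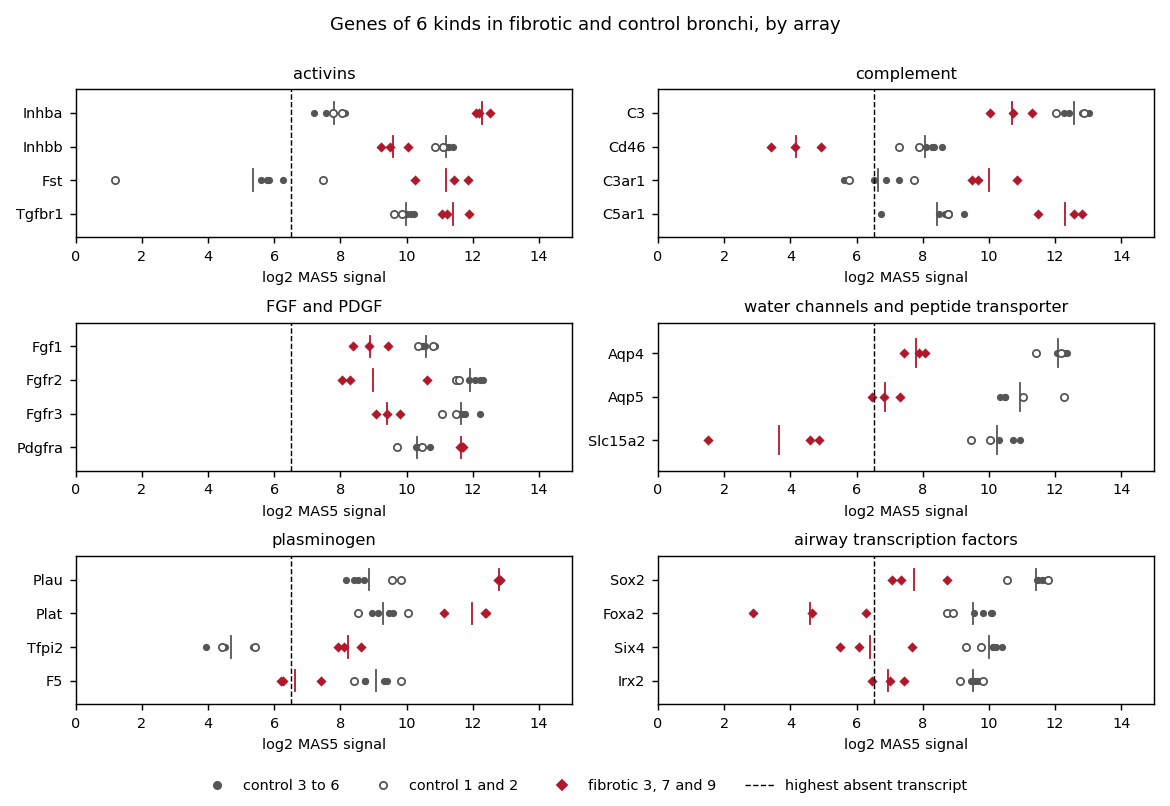
Log2 MAS5 signal (x axis) of genes of 6 kinds on each control and fibrotic array. Symbols are as in the plot of the leading genes, with short bars for group means and a dashed line at the level of absent transcripts. Inhba rose by 4.47 and Inhbb fell by 1.60 on the log2 scale, and the receptors C3ar1 and C5ar1 rose whereas C3 and Cd46 fell.

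Both plasminogen activators were called higher. Of 32 genes of plasminogen activation and coagulation 6 rose (18.8%, against 4.13% of all genes) and 1 fell (3.12%, against 8.38%). The median was 0.92 (floored 0.09), and 3 rose without fibrotic replicate 3. The falls numbered 2 without fibrotic replicate 7 or 9 or control 1. With the block 2 rose and 1 fell. Plat, tissue plasminogen activator, was at 8.54 to 10.05 (median 9.32) in the controls and 12.38, 12.41 and 11.12 in the fibrotic arrays (log2 difference 2.67 ± 0.44, adjusted p = 0.000524, 2.68 and not called with the block). Tfpi2, an inhibitor of plasmin and of tissue factor, was at 3.95 to 5.41 (median 4.51), all controls below the level of absent transcripts, and 8.64, 8.11 and 7.92, and was at least 3.26-fold higher. It was not called with the block (3.30). Plaur, the receptor of urokinase, rose. F5, coagulation factor V, was at 8.42 to 9.84 (median 9.04) and 7.41, 6.28 and 6.21 (log2 difference -2.45 ± 0.39, floored -2.27).

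Of 54 metalloproteinases and their inhibitors 9 rose (16.7%, against 4.13% of all genes) and 4 fell (7.41%, against 8.38%). The median was 0.97 (floored 0.18). With the block 1 rose and 2 fell, of which 1 and 1 were also called without it. The rises numbered 4, 3 and 4 without fibrotic replicate 3, 7 and 9 and 5 without control 5, and the falls 2 without fibrotic replicate 7 or 9 or control 3 or 5. Adamts4, an aggrecanase that cleaves the proteoglycans of loose matrix, was at 6.58 to 9.45 (median 7.26) in the controls and 12.13, 12.11 and 11.81 in the fibrotic arrays (log2 difference 4.43 ± 0.72, adjusted p = 0.00046, 3.83 and not called with the block). Timp2, an inhibitor of metalloproteinases, was at 11.66 to 12.36 (median 11.92) and 13.12, 13.30 and 13.24 (log2 difference 1.26 ± 0.21), and its second probe set was not called (0.71). Adam8 was lower by 4.11 ± 0.21 (SE), at 12.59 to 13.34 (median 12.93) in the controls and 9.20, 8.87 and 8.40 in the fibrotic arrays, but a second probe set for it differed by 0.04. Cst6, a cystatin of epithelium, was at 10.45 to 11.71 (median 11.24) and 8.62, 7.02 and 8.99 (log2 difference -2.99 ± 0.37).

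Lysosomal proteases and macrophage genes rose. Of 39 cathepsins and lysosomal genes 12 rose (30.8%, against 4.13% of all genes) and none fell. The median was 1.02 (floored 0.97), and 7 rose with the block, of which 6 were also called without it. The count was 6 without fibrotic replicate 3 or 7 and 7 without control 4. Ctsl, cathepsin L, was at 10.49 to 10.91 (median 10.76) in the controls and 13.26, 12.81 and 12.62 in the fibrotic arrays (log2 difference 2.16 ± 0.24, adjusted p = 1.58e-05). Lgmn, an asparaginyl protease, was at 9.11 to 10.22 (median 10.01) and 13.08, 12.29 and 12.02 (log2 difference 2.58 ± 0.32), but was not called at its second probe set (1.34) or with the mean of its probe sets (1.96). Grn, progranulin, was at 10.13 to 11.05 (median 10.34) and 13.08, 13.01 and 12.27 (log2 difference 2.33 ± 0.31). Of 32 macrophage genes 17 rose and none fell (53.1% against 4.13% of all genes), with a median of 2.61 (floored 2.38), and 6 rose with the block. The count was 6 without fibrotic replicate 3 or 7 and 11 without control 5. Of other macrophage genes, Csf1r was not called. Cd68 was called higher, but not with the block, nor without fibrotic replicate 3 or 7 or control 2, 4, 5 or 6. The summed signal of the list was 14.66 to 15.35 in the controls and 16.18 to 16.89 in the fibrotic arrays on the log2 scale. Cd163, the haemoglobin scavenger receptor, was at 3.26 to 6.95 (median 5.45) and 9.96, 10.33 and 9.42 (log2 difference 4.46 ± 0.71, floored 3.31). Ccr2, the receptor that draws monocytes from blood, was at 6.35 to 7.89 (median 7.28) and 10.01, 11.07 and 9.46 (log2 difference 2.96 ± 0.47), and Clec4a3, a lectin of myeloid cells, at 7.03 to 8.47 (median 7.89) and 11.87, 11.44 and 10.55 (log2 difference 3.52 ± 0.47).

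Complement receptors of myeloid cells rose, whereas the central component and a regulator fell. Of 27 complement genes 8 rose (29.6%, against 4.13% of all genes) and 4 fell (14.8%, against 8.38%). The median was 1.18 (floored 0.20), with 3 rises without fibrotic replicate 7, and 1 rose and 3 fell with the block. C5ar1, the receptor for C5a, was at 6.73 to 9.24 (median 8.71) in the controls and 12.82, 12.58 and 11.48 in the fibrotic arrays (log2 difference 3.85 ± 0.67, 3.54 and not called with the block). C3ar1, the receptor for C3a, was at 5.62 to 7.73 (median 6.70) and 10.86, 9.68 and 9.50 (log2 difference 3.38 ± 0.57, floored 3.10, 3.27 and not called with the block). C3 itself was at 12.02 to 13.02 (median 12.61) and 10.03, 10.72 and 11.30 (log2 difference -1.88 ± 0.30, adjusted p = 0.00035). Cd46, a gene of the complement regulators, was at 7.28 to 8.58 (median 8.19) and 4.15, 3.40 and 4.92 and was at least 2.94-fold lower. Cd59b, another gene of the regulators, fell, and C1qc, C1r and C1s rose.

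Of 106 interleukins, chemokines and their receptors 11 rose (10.4%, against 4.13% of all genes) and 4 fell (3.77%, against 8.38%). The median was 0.97 (floored 0.45), and 3 rose and none fell with the block. The rises numbered 6, 6 and 4 without fibrotic replicate 3, 7 and 9, and 7 and 6 without control 3 and 6. The falls numbered 2 without fibrotic replicate 3 or 9 or control 3 or 4, and 1 without control 6. Il1a, interleukin 1 alpha, was at 4.58 to 5.33 (median 4.98), all controls below the level of absent transcripts, and 8.97, 10.95 and 8.43 in the fibrotic arrays, and was at least 7.63-fold higher (adjusted p = 8.17e-05). Il1rl1, the receptor of Il33, was at 5.40 to 6.76 (median 6.33) in the controls and 9.11, 7.99 and 9.79 in the fibrotic arrays, and was called higher, although it lost the call without fibrotic replicate 3 or 9 (log2 differences of 2.66 and 2.32), with the block (2.89), at its second probe set (0.27) and with the mean of its probe sets (1.5). Lifr, the receptor of leukaemia inhibitory factor, was lower by 2.49 ± 0.40 (SE) and was -2.31 and not called with the block. Tnfaip6, a hyaluronan-binding protein induced by inflammation, was at 5.12 to 6.34 (median 5.79), all controls below the level of absent transcripts, and 9.00, 10.72 and 10.06, and was at least 10.6-fold higher. Ly96, the partner of the endotoxin receptor Tlr4, was at 7.55 to 8.94 (median 8.04) and 11.06, 10.99 and 10.48 (log2 difference 2.72 ± 0.36). Gbp2, a guanylate-binding protein induced by interferon, was at 7.07 to 9.32 (median 8.10) and 10.85, 10.59 and 10.54 (log2 difference 2.53 ± 0.41), and Ifnar1, a receptor subunit of type I interferon, was higher by 1.88 ± 0.27 (SE) but not called at its second probe set (1.37) or with the mean of its probe sets (1.08).

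Lymphocyte genes could not be separated from the spread among the controls. None of 25 T cell genes was called by the limma fit or by ordinary t statistics, while 12 had an unadjusted p under 0.05 (median 1.64, floored 1.12, and 0.62 with the block). The summed signal of the list was 13.42 to 13.83 in controls 1 and 2, no more than 12.68 in controls 3 to 6 and 13.77 to 14.11 in the fibrotic arrays on the log2 scale. Cd3d, Cd3e and Cd3g, chains of the T cell receptor complex, ranged from 3.84 to 10.18, 3.53 to 9.68 and 6.45 to 10.75 in the controls. In the fibrotic arrays they were at 9.92, 9.55 and 9.68, at 9.04, 9.03 and 9.53 and at 10.75, 9.48 and 9.97, so that the groups overlapped. Without control 1, 3 T cell genes were called higher. The T cell median stood 1.61 below the control mean in control 5 and 1.09 above it in control 1, against 1.34 to 1.68 above it in the fibrotic arrays. Of 13 B and plasma cell genes 1 rose (7.69%, against 4.13% of all genes). It was Prdm1, which drives plasma cell and lymphocyte maturation, at 5.10 to 6.25 (median 5.61) in the controls and 9.06, 8.69 and 8.69 in the fibrotic arrays. Of 9 neutrophil and 7 eosinophil genes none was called by either method, and 1 and 0 had an unadjusted p under 0.05. S100a8 and S100a9, abundant proteins of neutrophils, were at 7.55 to 11.55 and 8.09 to 12.13 in the controls and at 10.71, 10.48 and 10.36 and 11.51, 11.27 and 11.29 in the fibrotic arrays.

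Fibroblast genes rose, and the leading contractile genes of smooth muscle were not called. Of 25 fibroblast genes 7 were higher (28%, against 4.13% of all genes) and 1 lower (4%, against 8.38%). The median was 1.44 (floored 1.35), and 3 were higher with the block. The fall, of Runx1, was lost without fibrotic replicate 7 or 9 or any of controls 2 to 6. The summed signal was 14.13 to 14.78 in the controls and 15.43 to 15.71 in the fibrotic arrays. Mfap5, a microfibril protein, was at 9.16 to 10.41 (median 9.55) in the controls and 11.42, 11.72 and 10.97 in the fibrotic arrays (log2 difference 1.74 ± 0.31). Ptn, pleiotrophin, a heparin-binding growth factor, was at 8.12 to 8.74 (median 8.41) and 10.19, 9.94 and 10.34 (log2 difference 1.72 ± 0.29, adjusted p = 0.000666). Vim, vimentin, was higher by 1.78 ± 0.27 (SE), and by 1.41 and not called with the block. Thy1 and Dpt, other genes of fibroblasts, were not called. The myofibroblast and smooth muscle gene Acta2 was at 11.34 to 12.79 (median 12.05) and 11.57, 12.61 and 11.41, Myh11, the smooth muscle myosin heavy chain, at 10.57 to 12.93 (median 12.80) and 11.98, 12.21 and 11.13, and Tagln at 9.95 to 12.58 (median 12.29) and 11.64, 12.27 and 11.56, and none of these was called. Of 30 smooth muscle genes 1 was higher and 2 were lower, shares of 3.33% and 6.67% against 4.13% and 8.38% of all genes. The falls numbered 5 without control 2 and 1 without fibrotic replicate 7 or 9 or control 3, 5 or 6, and the rises 2 without control 1. With the block 1 was higher and 1 lower. The one that rose was Cald1, caldesmon, at 9.57 to 10.60 (median 10.08) and 11.93, 12.40 and 12.58 (log2 difference 2.22 ± 0.26), a gene that fibroblasts also express.

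Of 47 genes of the actin and tubulin cytoskeleton 8 rose (17%, against 4.13% of all genes) and none fell. The median was 0.63 (floored 0.63), and 2 rose and 1 fell with the block. The count was 4 and 3 without fibrotic replicate 3 and 7 and 5 without control 3 or 5, with 1 fall without fibrotic replicate 7. Tubb6, a tubulin of mesenchymal cells, was at 9.21 to 10.43 (median 9.92) in the controls and 12.71, 12.70 and 12.41 in the fibrotic arrays (log2 difference 2.73 ± 0.29, 6.62-fold, adjusted p = 1.01e-05), and Msn, moesin, at 11.17 to 12.26 (median 11.54) and 13.12, 13.34 and 13.02 (log2 difference 1.59 ± 0.21). Pdpn, podoplanin, which marks lymphatic endothelium, alveolar type 1 cells and activated fibroblasts, was at 8.61 to 9.37 (median 8.95) and 11.76, 11.93 and 11.46 (log2 difference 2.77 ± 0.29). Of 9 lymphatic endothelial genes 2, Pdpn and Reln, rose and none fell (22.2%, against 4.13% of all genes, median 2.14, floored 1.01), and 1 rose with the block. Reln was not called without the trend (2.44) or at its second probe set (3.96), and 1 of the list was called without any 1 array other than control 1. The summed log2 signal of this list was 10.73 to 12.09 in controls 1 and 2, 10.07 to 10.61 in controls 3 to 6 and 12.45 to 12.97 in the fibrotic arrays. Prox1, Lyve1 and Flt4, further markers of lymphatic vessels, were not called, and neither was Ager of alveolar type 1 cells. Tnni3, cardiac troponin I, was at 10.35 to 11.35 (median 10.59) and 5.68, 5.79 and 6.78 (log2 difference -4.60 ± 0.32, floored -4.08), and Myh6 and Tnnt2, other genes of heart muscle, were not called. Ncam1, an adhesion molecule of nerve, was at 6.61 to 9.10 (median 7.43) and 10.22, 10.51 and 12.02 (log2 difference 3.44 ± 0.51, 2.61 and not called with the block, nor at its second probe set, 0.78, or with the mean of its probe sets, 2.12).

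The fibrotic arrays differed from each other in their epithelial genes. The median of the basal and squamous list stood 0.42, 0.60 and 1.89 above the control mean in fibrotic replicates 3, 7 and 9. Krt5 and Krt14, the keratins of basal cells, were at 4.59, 2.44 and 12.41 and at 8.56, 9.17 and 12.45, so that both were highest in replicate 9, and the controls spanned 2.81 to 10.01 and 3.22 to 9.96. The alveolar type 2 median stood 1.18 above the control mean in replicate 7 and 0.89 and 0.48 below it in replicates 3 and 9. Sftpc, the surfactant protein of alveolar type 2 cells, was at 7.51, 14.17 and 11.28 and Sftpa1 at 10.08, 14.19 and 10.43, and Sftpb and Sftpd, which were called lower (Sftpb not with the block), were also highest in replicate 7, at 9.41, 11.94 and 8.94 and 10.12, 12.21 and 9.18. Krt6c, a keratin of injured and squamous epithelium, was highest in replicate 9 as well, at 9.68, 8.97 and 12.02, and all 6 controls lay below the level of absent transcripts (2.09 to 4.39). Counting values below that level as at it, 16, 37 and 46 genes stood over 2 log2 units above both other fibrotic arrays in replicates 3, 7 and 9, and 29, 23 and 14 stood as far below both. The part of alveolar tissue or of regenerating epithelium in each specimen was not tested.

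**Figure D4:**
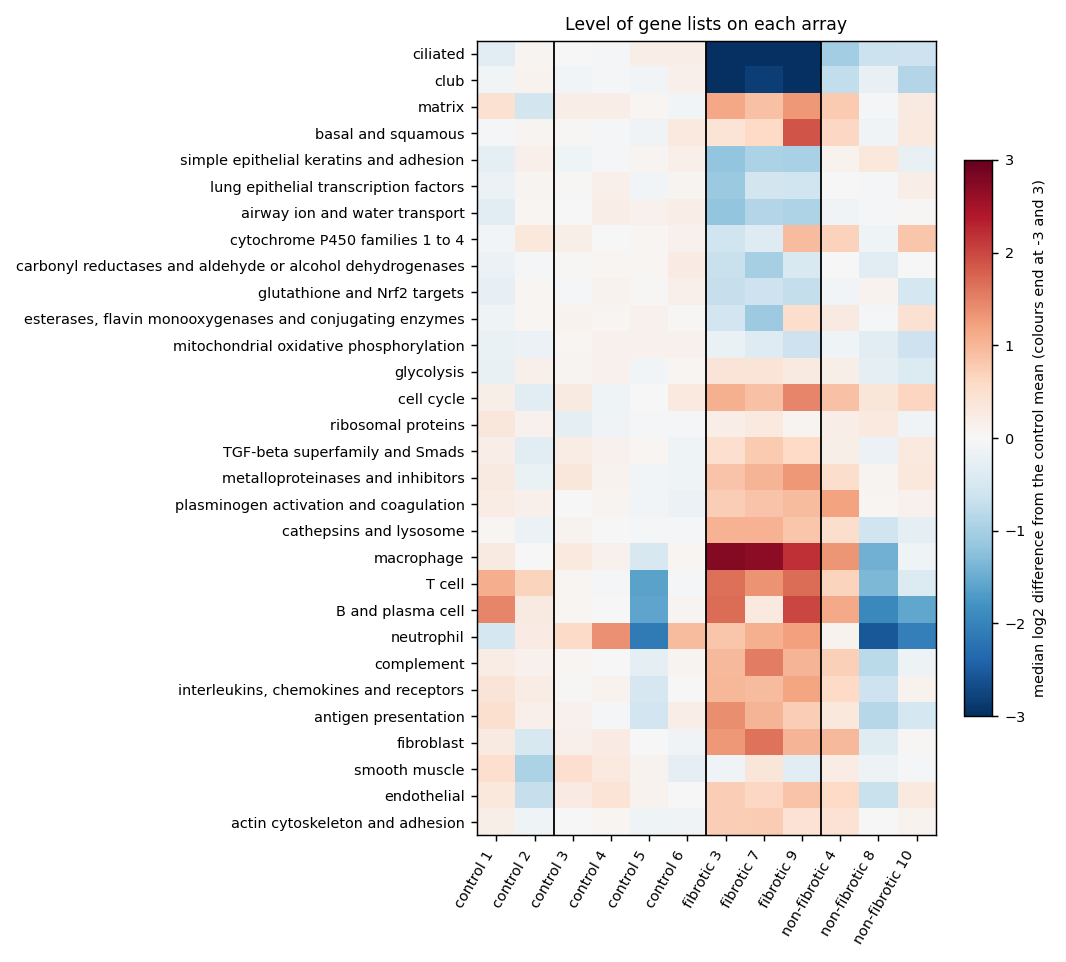
Median log2 difference from the control mean (colour, red above and blue below) of 30 gene lists (rows) on each of the 12 arrays (columns). The macrophage row stands at 2.76, 2.68 and 2.20 in fibrotic replicates 3, 7 and 9, and the basal and squamous row is highest in replicate 9 at 1.89.

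The non-fibrotic bronchi of exposed rats share the controls of this comparison, and their levels are given side by side only. Inhba was at 9.54, 5.47 and 6.15 in non-fibrotic replicates 4, 8 and 10, the first above and the other two below the control range of 7.21 to 8.14. Aqp4 was at 11.06, 11.58 and 11.15 there, against 11.42 to 12.37 in the controls and 7.45 to 8.08 in fibrotic bronchi. Gsta1 was at 12.26, 13.07 and 12.88 and Sox2 at 10.67, 10.63 and 11.21 on the same arrays. Mki67 was at 12.04, 11.35 and 11.96, above all controls, whose highest value was 11.11. Plau was at 11.42, 9.34 and 8.80, and Cd163 at 8.09, 5.75 and 7.00.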

How the data were processed

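Expression was measured on 12 Affymetrix rat arrays with 3′ probe sets, each from 1 laser-captured specimen of bronchus, and the 6 air control and 3 fibrotic arrays were compared. The authors scaled each array by MAS5, run in GeneChip Command Console, and deposited a linear intensity per probe set, with a trimmed mean of 500.1 to 500.2 on each array. Replicates were not pooled. The genome build of the probe annotation is not given in the sources used here.

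Intensities were taken to log2 without a pseudocount, and 57 control probe sets of 31099 were left out. One linear model with 3 groups over the 12 arrays was fitted to 31042 probe sets with limma 3.58.1 in R 4.3.3 (moderated statistics with a trend), and the contrast of fibrotic with control bronchi was tested with Benjamini-Hochberg adjustment over all probe sets (call at an adjusted p under 0.01). The platform annotation gave 1 symbol to 20826 probe sets, several to 436 and none to 9780. A gene was read from its probe set with the highest mean. The level of absent transcripts was the highest of 84 values, those of bacterial Trp control probe sets on all arrays and of the polyA spike-in probe sets on the 2 arrays that showed no spike-in. MAS5 values of dim probe sets are noisy and the number of arrays limits the precision.

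Named genes were the 20 largest rises and falls with non-overlapping groups (dimmer values raised to the level of absent transcripts first, ciliated, club and matrix lists and unnamed loci left out), the 4 called members of each gene list with the smallest p, and the first 3 measured members of each cell type list. Of these, mostly genes that kept the call without any 1 array were printed, and further members are given by direction only. The genes whose promoters are shown, and Runx1, Lyz2 and other single calls named beside small counts, were named after their values were seen. Members and lists were chosen with earlier results of these data known. Promoters were read from RefSeq (GRCr8) for 11733 genes. Figures were drawn with Python 3.11.15 and matplotlib 3.10.9.

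On data simulated for this comparison, 32% of changes of 2 and 71% of changes of 4 on the log2 scale were recovered over 31042 probe sets, with 1 false call. The simulation had independent normal noise, 100 changed probe sets at each size and no difference between label forms. Far fewer probe sets changed in it than were called in the data, so its recovery and false calls need not hold for the data. The alternatives tried were other thresholds, quantile normalization, median centring, log2(signal + 16), leaving out the lowest 40% of probe sets, the 9 compared arrays alone, statistics without the trend, array weights, ordinary t statistics, the label form of the controls as a fixed or random block, each set of controls alone, other probe sets of a gene, and leaving out each array in turn.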

Additional observations from a re-analysis of the deposited data

Results flagged for a closer look

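Among 147 genes named, 19 had 1 control far from the other 5, with a gap that took more of the whole control range than Dixon's critical value for 6 arrays. Chance alone flags about 1 in 20. In 17 of the 19 the distant array was control 1 or 2, whose labels have the form of the exposed arrays. Control 1 was the lowest for Aqp4 (11.42), Bcat1 (5.19), Bmp5 (8.76), Dnali1 (10.66), Drc12 (11.75), Kndc1 (10.71) and Sox2 (10.55), all log2 signals, and the highest for Fstl1 (12.49) and Ncam1 (9.10). Control 2 was the lowest for Fst (1.20), Lgmn (9.11), Lgr5 (8.09), Myh11 (10.57) and Tagln (9.95), and the highest for Aqp5 (12.27), Gstm2 (13.40) and Krt7 (10.43). Control 5 was the lowest for C5ar1 (6.73) and Cd3d (3.84). The values of Bcat1, Fst and Cd3d lie below the level of absent transcripts and have no order there. All calls among these genes held without the distant array, although most printed genes were chosen for keeping the call without any 1 array.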

How the results depend on the processing

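The direction of the probe set counts, with more falls than rises, held in every alternative. Against 927 probe sets higher and 1987 lower, an adjusted p under 0.05 gave 2359 and 3182, array weights 1806 and 3057, ordinary t statistics 500 and 1260, and the label form as a fixed block 375 and 962. Controls 1 and 2 alone gave 62 and 346. Controls 3 to 6 alone gave 1561 higher, and statistics without the trend 547 higher. Leaving out 1 array gave 395 to 1205 higher and 1323 to 2153 lower. Fewer arrays entered the fit where controls were left out, and the cause of the changed counts was not tested. Of 129 called genes that were named, 48 kept sign and call in every alternative. The call was lost by 26 with the label form as a fixed block and 4 with it as a random block. Against controls 1 and 2 alone 73 lost it, and 3 against controls 3 to 6 alone. It was lost by 19 with ordinary t statistics, 7 without the trend and 1 after quantile normalization. With the mean of probe sets 6 lost it, 16 at a second probe set and 8 without 1 array. None was lost with median centring, log2(signal + 16) or the 9 arrays alone. Mostly genes that kept the call without any 1 array were printed, so the counts of 48 and 8 favour stability by choice. Only part of the named genes had a second probe set, and 35 of them, called or not, were the same there. Over all genes, 227 that rose and 328 that fell had a second probe set. Another probe set was called the same way for 73 and 144 of them. A second probe set reversed the sign for Adam8 (0.04) and Pon1 (0.80). Some list medians changed sign, with no cause tested. That of the cytochrome P450 list was -0.76 without the lowest 40% of probe sets, -0.18 with the fixed block and against controls 1 and 2 alone, -0.92 at second probe sets and -0.26 to 0.42 without 1 array. That of esterases was 0.68 at second probe sets and -0.52 to 0.18 without 1 array. That of mucins was -2.28 without the lowest 40%, -1.70 at second probe sets and -0.30 to 0.86 without 1 array. That of secreted host defence was 0.09 with the fixed block and against controls 1 and 2 alone. The median over all genes was 0.10 in the model and after quantile normalization and 0.17 after median centring. No paired analysis was possible because the groups share a single replicate number and the labels tie no specimen to a rat.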
